A study of Arabidopsis thaliana with 4 samples.

Results

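ATP-citrate lyase is the cytosolic enzyme that splits citrate, at the cost of ATP, into oxaloacetate and acetyl-CoA. In Arabidopsis thaliana it is built from a smaller A subunit and a larger B subunit, both needed for activity, and the genome holds 5 loci for them: ACLA-1 (AT1G10670), ACLA-2 (AT1G60810), ACLA-3 (AT1G09430), ACLB-1 (AT3G06650) and ACLB-2 (AT5G49460). The genes were taken by their annotation as subunits of this enzyme, and the family was chosen because ACLA-2 had been seen to be higher in the ecotype Wassilewskija (Ws) than in Columbia (Col). Of the 5 loci, 4 had a probe set in the annotation used, 1 each, out of 13355 genes with a probe set of their own. ACLB-2 was not analysed here, so the B subunit was read from ACLB-1 alone. All 4 probe sets passed the filter on dim signals.

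The series measured transcripts of above-ground plant parts with Affymetrix arrays in 4 groups of 1 array each: an fnr1 mutant in Ws, wild type (WT) Ws, an fnr1 mutant in Col and WT Col. FNR1 encodes a leaf ferredoxin-NADP+ oxidoreductase of the chloroplast, and the labels name no allele. All plants were 31 days old, grown in 8 h of light and 16 h of dark at 21 °C, and were collected 4 h after the lights came on. The labels do not say how many plants stood behind an array, and the mutation itself could not be checked, FNR1 having no listed probe set.

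The acetyl-CoA that this enzyme releases cannot be replaced by import from plastids or mitochondria. It feeds the elongation of fatty acids that end in cuticular wax, the mevalonate route to sterols, the malonyl-CoA used for flavonoids, and the acetylation of proteins. In animals one polypeptide carries both parts of the enzyme, whereas in plants the A and B parts are separate gene products. DEWAX, an AP2/ERF transcription factor of Arabidopsis, is known to repress wax synthesis genes in darkness and to bind the ACLA-2 promoter.

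The question was whether the higher ACLA-2 of Ws is shared by the other subunits. ACLA-1 and ACLB-1 did not show it: their fitted differences lay close to 0, with upper 95% limits of 1.25-fold and 1.32-fold. ACLA-3 lay in the opposite direction without passing the test. The signals below were multiplied by 1 factor per array (0.912 to 1.19) to bring the arrays to a common median of 26.4, because the deposited WT Col array was dimmer than the others (median 22.1 against 27.5 to 28.9). Log2 differences were taken after adding a pseudocount of 5.75, and each was fitted over both pairs of arrays. Signals of different probe sets are not on a common scale, so no subunit's level was ranked against another's.

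ACLA-2 encodes 1 of the A subunits. Its signal was 373 in fnr1 Ws and 308 in WT Ws, against 107 in fnr1 Col and 77.2 in WT Col. Both Ws arrays stood above both Col arrays, as they did for 27% of tested probe sets, and within each ecotype the fnr1 array was the higher. The difference between Ws and Col was 1.75 on the log2 scale in fnr1 plants (3.37-fold) and 1.92 in WT plants (3.79-fold), with a fitted value of 1.84 (3.57-fold). It ranked at place 16 from the top among 13648 tested probe sets, and 0.454% of these had a 2-fold or larger excess in Ws within fnr1 and within WT alike. Since this difference chose the gene family, no test is attached to it. On the deposited scale the signals were 388 and 338 in fnr1 Ws and WT Ws, against 112 and 64.6 in fnr1 Col and WT Col.

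ACLA-1 encodes another A subunit. Its signal was 754 in fnr1 Ws and 819 in WT Ws, against 660 in fnr1 Col and 913 in WT Col. The 2 Ws arrays lay between the 2 Col arrays, so the ecotypes overlapped. The fitted difference of Ws minus Col was 0.02 ± 0.15 (SE, 2 arrays against 2, limma adjusted p = 0.969), and its 95% interval ran from 0.817-fold to 1.25-fold.

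ACLB-1, the measured gene of the B subunit, had a signal of 412 in fnr1 Ws and 444 in WT Ws, against 448 in fnr1 Col and 366 in WT Col. Here too the ecotypes overlapped, with both Ws signals inside the Col range. The fitted difference was 0.08 ± 0.15 (SE, 2 arrays against 2, limma adjusted p = 0.851), with a 95% interval from 0.842-fold to 1.32-fold. A change in Ws within these limits could not be detected for ACLA-1 or ACLB-1, and the p-values do not show that the ecotypes were equal. Each gene had opposite signs in fnr1 and in WT plants, as did 37.4% of tested probe sets; on the deposited scale ACLA-1 was positive in both.

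ACLA-3, the remaining A subunit gene, had a signal of 129 in fnr1 Ws and 97.4 in WT Ws, against 182 in fnr1 Col and 144 in WT Col. Both Ws arrays were below both Col arrays, as was the case for 21.1% of tested probe sets. The difference was -0.48 in fnr1 plants and -0.54 in WT plants, and the fitted value of -0.51 ± 0.17 (SE, 2 arrays against 2) did not pass the test (unadjusted p = 0.00714, limma adjusted p = 0.074). Its 95% interval ran from 0.551-fold to 0.897-fold. In 11 alternative settings ACLA-3 stayed lower in Ws and was called in none, with limma adjusted p-values from 0.0589 to 0.722.

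**Figure D1:**
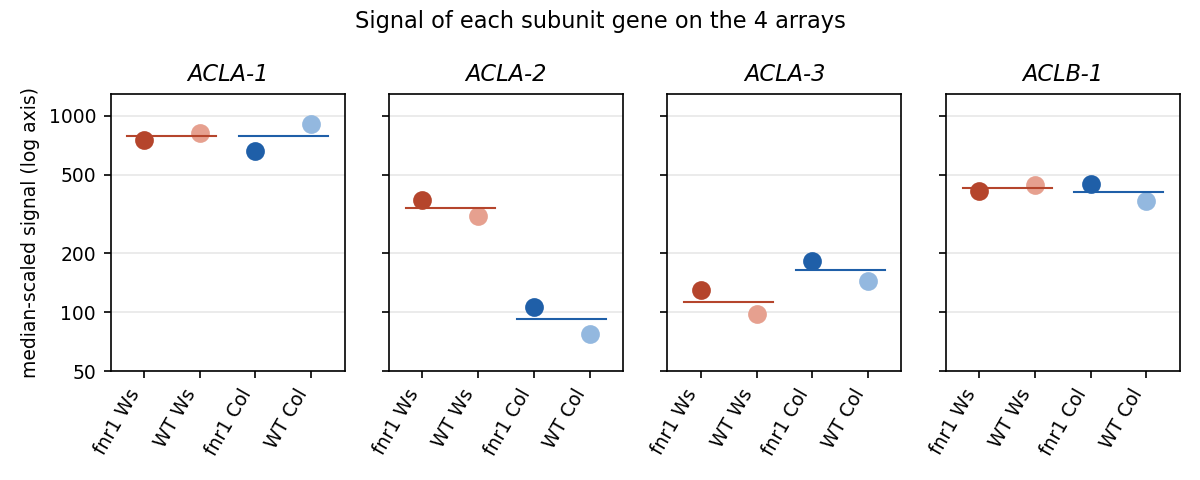
Median-scaled signal (vertical log axis) of ACLA-1, ACLA-2, ACLA-3 and ACLB-1 on the 4 arrays, with Ws in red and Col in blue, fnr1 dark and WT pale; each point is 1 array and each line the mean of the 2 arrays of an ecotype. ACLA-2 has 373 and 308 in Ws against 107 and 77.2 in Col, while the ecotypes overlap for ACLA-1 and ACLB-1 and ACLA-3 is lower in Ws.

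Across the whole table limma called 8.25% of tested probe sets between the ecotypes at an adjusted p under 0.05, with 3.06% higher and 5.19% lower in Ws. Of the 3 subunit genes that had not been chosen by value, 0 were called, and 1 (ACLA-3) had an unadjusted p under 0.05, a mark that 20% of tested probe sets reached. The 2 genotypes served as replicates of each ecotype. The spread behind an SE or p-value came mostly from the trend over all tested probe sets (prior degrees of freedom 16.7). A gene's own disagreement between the 2 pairs of arrays added only 1 degree of freedom. An SE given here is thus not the gene's own spread. ACLA-1 had a gap between its pairs of 0.345 with an SE of 0.15, and ACLA-3 a gap of 0.061 with an SE of 0.17. In whole shoots, a change of transcript per cell and a change in the share of the cells that carry it cannot be told apart. Probe sequences were not compared between the ecotypes, so any effect of sequence differences on the signal was not tested.

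Ratios within an array do not depend on how arrays were scaled, apart from the small pseudocount. ACLA-2 relative to ACLA-1 was higher in Ws than in Col by 1.82 on the log2 scale, relative to ACLB-1 by 1.76 and relative to ACLA-3 by 2.34. Relative to the mean of the other 3 subunits it was higher by 1.89 in fnr1 plants and by 2.06 in WT plants, or 3.93-fold over both. These ratios contain the value that chose the family, so they are a description and were not tested.

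The mutation was compared next. No subunit gene passed the test between fnr1 and WT: limma called 0 of the 4, against 0.198% of all tested probe sets (0.176% up in the mutant and 0.022% down). An unadjusted p under 0.05 was reached by 2 of the 4 subunit genes, against 6.67% of all. ACLA-2 had 373 and 107 in fnr1 Ws and fnr1 Col, against 308 and 77.2 in WT Ws and WT Col. It was 1.21-fold as high in fnr1 as in WT in Ws and 1.36-fold in Col, with a fitted log2 difference of 0.36 ± 0.16 (SE, 2 arrays against 2, limma adjusted p = 0.715). ACLA-3 was similar, at 1.31-fold in Ws and 1.26-fold in Col, with a fitted difference of 0.36 ± 0.17 (limma adjusted p = 0.731). Both genes were thus higher in fnr1 in each ecotype, as were 21.9% of tested probe sets. ACLA-3 and ACLA-2 had the same sign between genotypes and opposite signs between ecotypes.

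ACLA-1 was lower in fnr1 in each ecotype, at 0.921-fold in Ws and 0.725-fold in Col, as were 30% of tested probe sets. Its fitted difference was -0.29 ± 0.15 (SE, 2 arrays against 2, limma adjusted p = 0.783). ACLB-1 took opposite signs, at 0.929-fold in Ws and 1.22-fold in Col, as did 48.1% of tested probe sets, with a fitted difference of 0.09 ± 0.15 (limma adjusted p = 0.963). The 95% intervals of the fold of fnr1 over WT were 1.01 to 1.62 for ACLA-2, 1.0 to 1.64 for ACLA-3, 0.66 to 1.01 for ACLA-1 and 0.849 to 1.33 for ACLB-1, without adjustment for the number of probe sets.

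**Figure D2:**
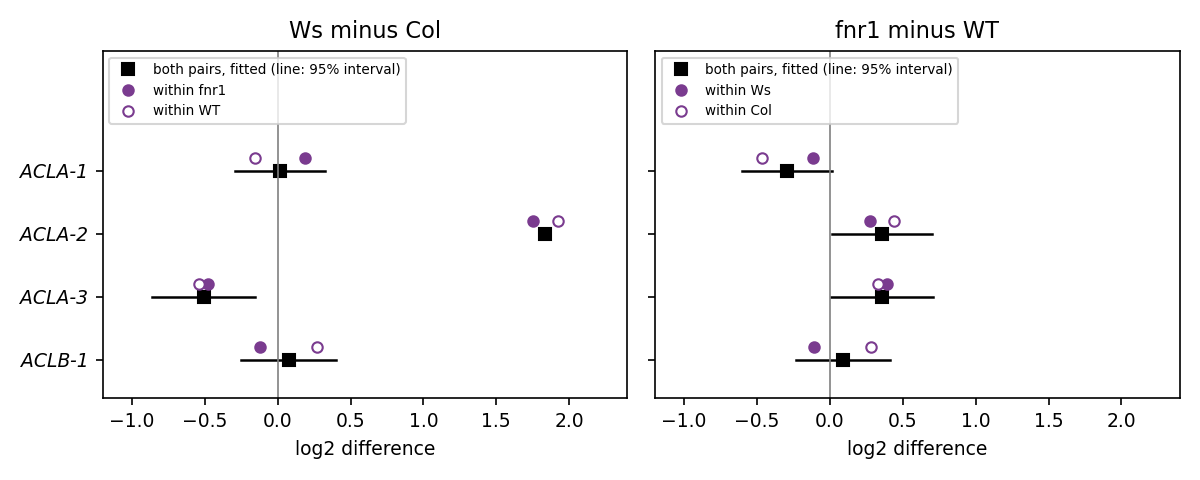
Log2 differences (horizontal axis) of the 4 subunit genes, Ws minus Col at left and fnr1 minus WT at right; squares are values fitted over both pairs of arrays with their 95% interval as a line, and circles are the differences within each single pair. ACLA-2 carries no interval at left because its ecotype difference of 1.84 chose the family; the other 3 lie between -0.51 and 0.08 there.

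**Figure D3:**
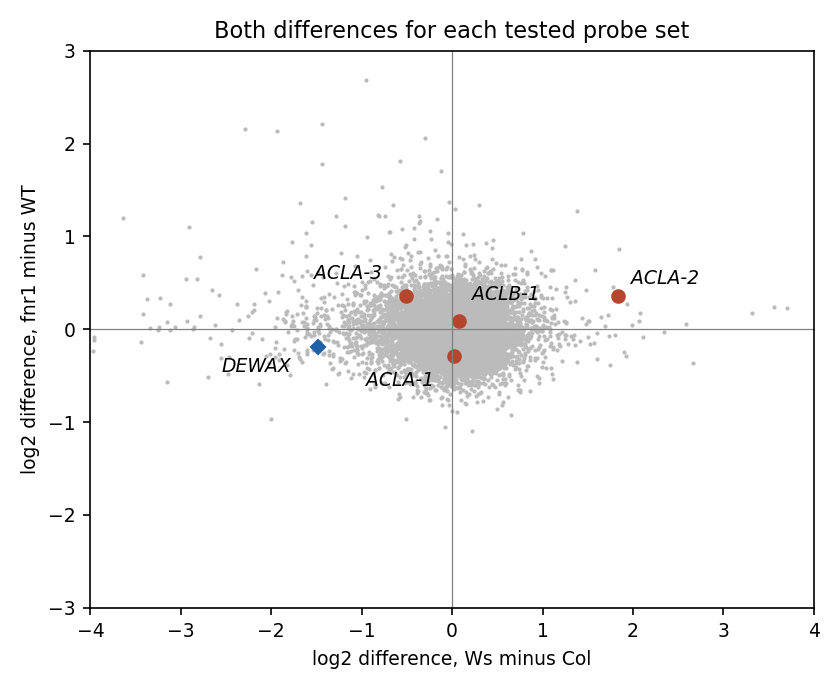
Log2 difference of Ws minus Col (horizontal axis) against that of fnr1 minus WT (vertical axis) for each tested probe set in grey, with the 4 subunit genes in red and DEWAX as a blue diamond; 10 of 13648 probe sets lie outside the axes. ACLA-2 stands apart from the bulk along the ecotype axis, and no subunit gene does so along the genotype axis.

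The genes around ATP-citrate lyase in metabolism were then read from the same fit. The 19 tested genes fell into 6 lists, of which 3 were written from general knowledge and 3 from the gene names in the probe annotation. Between Ws and Col, limma called 0 of the 19 higher and 6 lower in Ws, against 3.06% and 5.19% of all tested probe sets, and all 6 came from the lists built on the annotation. The lists were chosen with earlier results of these data known, and WSD1 was added after values of other wax genes were seen. WSD1 and PDC2, among the 6, also reached the filter only through Col. These counts are thus a description, and no excess over the share of all tested probe sets is read from them. The median difference of the 19 was -0.08, against 0.04 for all tested probe sets. Between fnr1 and WT, limma called 0 of the 19, and the median was 0.03 against -0.03 for all tested probe sets. With genotype left out of the model, 3 of the 19 were called between the ecotypes; leaving out 1 array as well gave 3 without fnr1 Ws, WT Ws or fnr1 Col and 4 without WT Col. On the deposited scale the count was 3, with no variance trend it was 3 and with no filter it was 2.

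Wax is one of the products of cytosolic acetyl-CoA. The 4 wax genes with a probe set were picked from gene names in the annotation, and WSD1 was added after the values of the other 3 had been seen. DEWAX, the repressor named above, had a signal of 68.0 in fnr1 Ws and 92.8 in WT Ws, against 236 in fnr1 Col and 229 in WT Col. Both Ws arrays were below both Col arrays, as was the case for 21.1% of tested probe sets, and the reverse of ACLA-2. The wax genes WSD1 (-1.96), CER26 (-0.52) and CER26-LIKE (-0.69, not called) were lower in Ws, as DEWAX was. Whether DEWAX bears on the signal of ACLA-2 or of these wax genes was not tested. In Ws, DEWAX fell by 1.48 ± 0.18 on the log2 scale (SE, 2 arrays against 2, limma adjusted p = 1.335e-05). WSD1, the wax ester synthase, had 9.1 in fnr1 Ws and 9.19 in WT Ws, against 44.6 in fnr1 Col and 60.8 in WT Col. In Ws it fell by 1.96 ± 0.25 (limma adjusted p = 3.287e-05), a size that the pseudocount understates. WSD1 lay below the filter level (a signal of 13.6) on both Ws arrays and was tested only through its Col signals, so its call follows in part from the filter; with no filter its limma adjusted p was 0.0271. DEWAX and WSD1 were called in the same direction in all 11 alternative settings, with limma adjusted p-values up to 0.00989 for DEWAX.

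CER26, which works in the elongation of very-long-chain fatty acids for wax, had 226 in fnr1 Ws and 194 in WT Ws, against 318 in fnr1 Col and 289 in WT Col. In Ws it fell by 0.52 ± 0.16 (SE, 2 arrays against 2, limma adjusted p = 0.0453). Its relative CER26-LIKE had -0.69 ± 0.27 and was not called (limma adjusted p = 0.14). The CER26 call ended on the deposited scale (limma adjusted p = 0.72), with no filter (0.123) and with no variance trend (0.151). It also ended with genotype left out of the model (limma adjusted p = 0.0825). The same held when 1 array was left out as well, with CER26 differences from -0.63 to -0.41.

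Among enzymes that handle isocitrate and malate, 1 of 6 tested genes was called. cICDH, the cytosolic NADP+-dependent isocitrate dehydrogenase, acts on a derivative of the same cytosolic citrate. It had 1472 in fnr1 Ws and 1315 in WT Ws, against 1994 in fnr1 Col and 1984 in WT Col. In Ws it fell by 0.51 ± 0.14 on the log2 scale (SE, 2 arrays against 2, limma adjusted p = 0.0243), a call that ended on the deposited scale (limma adjusted p = 0.68), with no filter (0.179), with no variance trend (0.157), with genotype left out (0.0525) and when any array was left out as well (0.071 to 0.363). The other 5 ran from -0.24 for NADP-MDH, the chloroplast malate dehydrogenase (limma adjusted p = 0.355), to 0.05 for IDH-V, a mitochondrial isocitrate dehydrogenase subunit (limma adjusted p = 0.909).

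Of 3 tested enzymes of pyruvate and acetyl groups, 2 were called. PDC2, a pyruvate decarboxylase, had 12.0 in fnr1 Ws and 14.7 in WT Ws, against 55.9 in fnr1 Col and 34.7 in WT Col. In Ws it fell by 1.39 ± 0.26 (SE, 2 arrays against 2, limma adjusted p = 0.00175), and was called in every alternative but the one with no filter (limma adjusted p = 0.106). Its mean log2 signal in Ws was 3.73, under the filter level of 3.77, so it too was tested only through its Col signals. PPDK, which interconverts pyruvate and phosphoenolpyruvate, had 175 in fnr1 Ws and 146 in WT Ws, against 329 in fnr1 Col and 201 in WT Col. In Ws it fell by 0.67 ± 0.17 (limma adjusted p = 0.0162), with a limma adjusted p of 0.00133 without WT Col, 0.0986 without fnr1 Ws, 0.38 without WT Ws, 0.44 without fnr1 Col and 0.596 on the deposited scale. It was 0.115 with no filter, 0.0899 with no variance trend and 0.094 with genotype left out and all arrays kept. LTA3, a subunit of pyruvate dehydrogenase, had 0.08 (limma adjusted p = 0.868).

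None of the 6 tested genes of the lists written from general knowledge was called in either comparison. In the mevalonate route, MVD2, a diphosphomevalonate decarboxylase, had 0.20 (limma adjusted p = 0.674) and PMK, the phosphomevalonate kinase, had 0.10 (limma adjusted p = 0.788) between Ws and Col. DTC, a mitochondrial carrier that can move citrate, had -0.06 (limma adjusted p = 0.864). In plastids, where acetyl-CoA is made by other enzymes, ACS, the acetyl-CoA synthetase, had 0.22 (limma adjusted p = 0.499). AT2G34590, of the pyruvate dehydrogenase E1 beta family, had -0.08 (limma adjusted p = 0.848). Of the 45 genes on these lists 6 had a probe set listed, and no gene of the lists for cytosolic malonyl-CoA and for cytosolic malate dehydrogenase was among them.

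**Figure D4:**
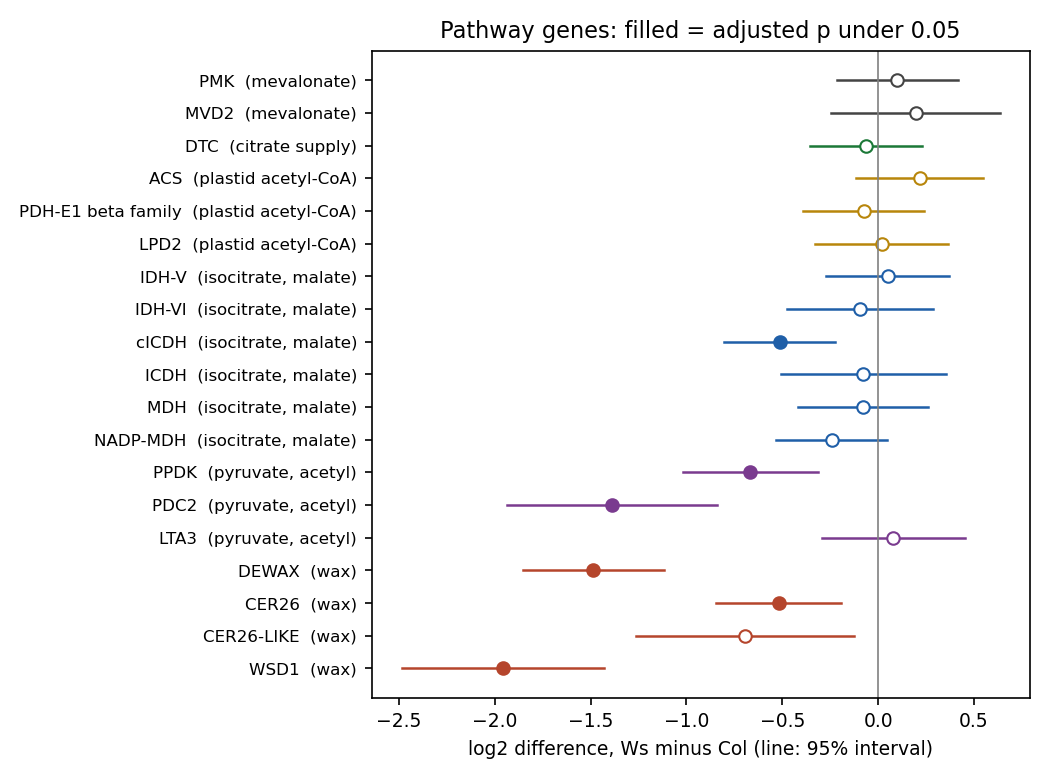
Log2 difference of Ws minus Col (horizontal axis) for the 19 tested pathway genes, grouped by colour into 6 lists; lines are 95% intervals and filled points have a limma adjusted p under 0.05. The 6 filled points, from WSD1 at -1.96 to cICDH at -0.51, all lie left of 0.

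The genes whose pattern over the 4 arrays was nearest to that of ACLA-2 were found by Euclidean distance between log2 values centred on their own mean, over 7349 candidate probe sets with 1 gene. UGT87A2, a glycosyltransferase gene, was the nearest at a distance of 0.30, followed by AT3G59780 at 0.38, AT2G35820 at 0.40, AT1G48750, a lipid transfer protein family gene, at 0.45 and AT1G52770 at 0.50. UGT87A2 had 194 and 193 in fnr1 Ws and WT Ws, against 63.6 and 52.5 in fnr1 Col and WT Col. Their differences of Ws minus Col ran from 1.35 for AT1G52770 to 2.08 for AT2G35820. The mean log2 signal of AT1G52770 in Col was 3.02, under the filter level of 3.77. It thus entered the candidates only through its Ws signals, and the pseudocount makes its difference smaller. Against ACLA-2, the 5 genes had smaller differences between fnr1 and WT, from 0.03 for AT3G59780 to 0.30 for AT1G52770. The list follows from the values that chose ACLA-2 and is a description of 4 arrays. With no filter on dim signals 1 of the 5 was kept among the nearest.

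**Figure D5:**
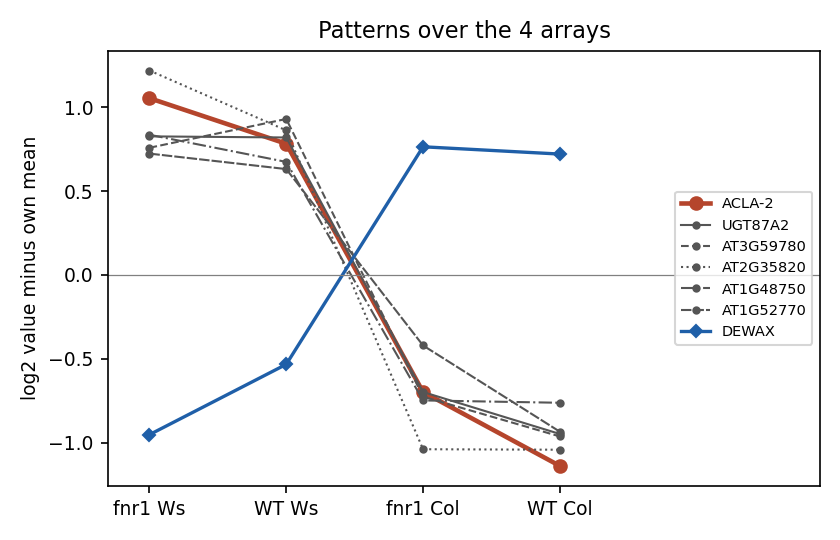
Log2 value minus the gene's own mean (vertical axis) on the 4 arrays for ACLA-2 in red, the 5 genes nearest to it in grey and DEWAX in blue; lines only join the points of a gene. ACLA-2 and the 5 genes are high on both Ws arrays, and DEWAX is high on both Col arrays.

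The genes beside the subunit loci on the chromosomes were read as well, 5 on each side of each of the 5 loci in the order of the TAIR10.1 gene table. Of these 50 loci, 20 were on the annotation and 9 passed the filter. Limma called 1 of the 9 between the ecotypes, against 8.25% of all tested probe sets. This was AT1G09440, next to ACLA-3, with 47.3 in fnr1 Ws and 47.5 in WT Ws against 24.2 in fnr1 Col and 27.4 in WT Col. It rose in Ws by 0.76 (limma adjusted p = 0.0397), while ACLA-3 beside it was lower in Ws. The call ended on the deposited scale (limma adjusted p = 0.074), with no filter (0.213) and without fnr1 Ws, WT Ws or fnr1 Col (0.23, 0.245 and 0.098). The other 8 ran from -0.22 to 0.47. None of the 10 loci around ACLA-2 was listed, so its surroundings were not analysed here.

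The tissue was checked by marker genes. RCA, the Rubisco activase of green tissue and the 1 leaf marker of 6 that was listed, had 7041 to 7327 over the 4 arrays. Of 7 root markers 3 were listed, and their summed signal was 79.4 and 112 in fnr1 Ws and WT Ws, against 139 and 114 in fnr1 Col and WT Col. Most of it came from PYK10, a beta-glucosidase of roots and hypocotyls (-0.54 between Ws and Col, limma adjusted p = 0.0979). PYK10 was lower in Ws, as were ACLA-3 and the 6 called pathway genes, and how it bears on them was not tested. The root hair expansins did not follow it. EXPA7 had 7.28 and 8.45 in fnr1 Ws and WT Ws, against 1.0 and 1.52 in fnr1 Col and WT Col, so it was higher in Ws at signals below the filter. EXPA18 had 1.31 and 10.5 in fnr1 Ws and WT Ws, against 6.54 and 2.04 in fnr1 Col and WT Col, with opposite signs in the 2 genotypes. None of 4 flower markers was listed.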

How the data were processed

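The deposited table holds 1 linear intensity per probe set and array for 4 arrays; per the submitters' processing notes, MAS5 was used. Its version, scaling target and detection calls are not given in the sources used here. Biotin-labelled cRNA came from 3 µg of total RNA, per the labels' protocols. From the deposited intensities, 64 control probe sets were left out of 22810, each array was scaled to a common median, and log2(signal + 5.75) was taken, the pseudocount being the 25th percentile of all signals. The 13648 of 22746 probe sets at or above the 40th percentile of mean log2 signal entered limma 3.58.1 (R 4.3.3) under an additive model of genotype and ecotype, with a variance trend, 2-sided tests and Benjamini-Hochberg adjustment at 0.05 over all of them. The model leaves 1 residual degree of freedom (prior degrees of freedom 16.7), and the number of arrays limits the precision. The procedure was also run on simulated data with independent noise and no genotype effect or interaction. That run does not test the p-values given here.

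The annotation gave 1 gene for 13513 probe sets and several for 503, and 8730 were not listed. Of the first, 13436 matched the TAIR10.1 gene table. All annotated subunit probe sets were described. From each pathway list, called members were named, or otherwise those with the highest and lowest ecotype difference, and others in addition after their values were seen. The subunit genes, lists and settings were chosen with earlier results of these data known, and the 3 lists from the annotation were added after it was read; WSD1 joined the last of them after the values of its other genes were seen. Alternatives changed the scaling, pseudocount, filter, variance trend and covariate, or left out an array. Probe sequences were not used here.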

Additional observations from a re-analysis of the deposited data

Results flagged for a closer look

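Some differences of the subunit genes took opposite signs on the 2 pairs of arrays behind a comparison, with 1 array on each side, so these contrasts were not tested. ACLB-1 had a log2 difference of fnr1 minus WT of -0.11 in Ws and 0.29 in Col, and a difference of Ws minus Col of -0.12 in fnr1 and 0.27 in WT. The gap between its pairs was exceeded in size by 33.7% of tested probe sets. These signs were the same on the deposited scale and with quantile normalization.

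ACLA-1 had a difference of Ws minus Col of 0.19 in fnr1 and -0.16 in WT, and 39.1% of tested probe sets had a larger gap between the pairs. On the deposited scale ACLA-1 had 0.18 in fnr1 and 0.23 in WT, so that the opposite signs were lost, and with quantile normalization it had 0.24 and -0.12. Over all tested probe sets, the ecotype difference took opposite signs in the 2 genotypes for 37.4%.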

How the results depend on the processing

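ACLA-2 was higher in Ws in all 11 alternatives, by 1.62 to 2.06 with an array left out and by 2.02 on the deposited scale. The other subunits were called in none. With an array left out, ACLA-1 had -0.21 to 0.25 and ACLB-1 -0.065 to 0.22 between Ws and Col, turning negative without WT Ws (-0.04) and without fnr1 Col (-0.21) for ACLA-1, and without WT Col (-0.065) for ACLB-1. Between fnr1 and WT, ACLA-2 had -0.60 to 1.32 (-0.52 without fnr1 Ws, -0.60 without WT Col) and ACLB-1 -0.047 to 0.23 (-0.047 without WT Col). With 3 arrays the other factor had to be dropped, so each such genotype contrast also holds an ecotype difference. Ecotype calls numbered 1126, against 449 on the deposited scale, 368 with no filter, 738 with no variance trend and 494 to 1010 with an array left out. The share of higher calls was 46.1% on the deposited scale, where the median of all probe sets was 0.21, 22.3% with no filter, and 26.3% and 23.3% without fnr1 Ws and WT Ws. Genotype calls by limma numbered 27, against 7 with no variance trend, 0 with no filter (1182 at an unadjusted p under 0.05), 0 with ecotype left out (214) and 0 to 1 with an array left out (170 to 274). Each group holds 1 array, so no pairing beyond genotype and ecotype was possible. The additive model already compares arrays within a genotype or ecotype. No detection calls were used, so a signal's margin over background was not analysed here.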
